A study of Mus musculus with 25 samples.

Results

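Chemokine transcripts were followed across mouse liver and liver tumors through 10 chemokine genes, *Ccl2*, *Ccl5*, *Ccl6*, *Ccl22*, *Cxcl1*, *Cxcl9*, *Cxcl10*, *Cxcl13*, *Cxcl14* and *Cxcl16*. They were named with earlier results of these data known, by a rule that uses no measured value, and were found through their gene identifiers among the 48795 genes of the deposited files. All 10 were present in every file, and all 10 passed the filter on low counts that left 15625 genes for testing.

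The 25 RNA-seq libraries came from male C57BL/6J mice in 5 groups. The nonDEN-L-CD group (3 libraries) was liver of untreated mice on the control diet (CD), and nonDEN-L-WD (4) was liver of untreated mice on the western diet (WD). Mice of the other groups received 25 mg/kg of the liver carcinogen diethylnitrosamine (DEN) at 2 weeks of age. DEN-L-CD (4) was liver of such mice on CD, DEN-PT-WD (8) was peritumoral liver of such mice on WD, and DEN-T-WD (6) was tumor tissue of such mice on WD. Diets began at weaning, and tissue for sequencing was taken at 36 weeks of age by a main legend of the paper. A supplementary legend gives 36 to 39 weeks for tissue harvesting. The study asked how carcinogen, diet and tumor growth change gene expression in the liver. No tumor group on CD was analysed here, so tumor and diet cannot be told apart beyond WD, and the labels do not tie a tumor library to the peritumoral library of the same mouse. The paper reports tumors in part of the injected CD mice, too small to be cut out reliably, so DEN-L-CD liver may hold tumor tissue. The labels do not say that libraries of a group are separate animals, so p-values measure the spread between these libraries.

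Chemokines are small secreted proteins that attract leukocytes by binding G-protein-coupled receptors on their surface. In the liver they are made by Kupffer cells, endothelial cells, stellate cells, infiltrating leukocytes and hepatocytes, and they set which immune cells enter injured tissue or a tumor. Transcription of several is known to be switched on by interferon gamma, through interferon-responsive promoter elements, and by inflammatory cytokines, through NF-kB.

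The stretches upstream of the starts of *Cxcl9*, *Cxcl10* and *Cxcl1* are shown because the first pair lies side by side on chromosome 5 and varied together between libraries of a group, and because *Cxcl1*, on the same chromosome, changed most. They are RefSeq sequences of build GRCm38.p6, written 5′ to 3′ on the gene's strand, and matched 7 of the 10 genes. Capitals mark matches, on either strand of the 250 bases before the RefSeq start, to 3 motifs. They were GGGA and TTCC with 2 bases of any kind between them for NF-kB, GAAA and GAAA with 2 bases of any kind between them for the interferon-stimulated response element (ISRE), and TTC and GAA with 3 bases of any kind between them for the gamma-activated site (GAS).
Cxcl9, chr5:92328080-92328329, minus strand: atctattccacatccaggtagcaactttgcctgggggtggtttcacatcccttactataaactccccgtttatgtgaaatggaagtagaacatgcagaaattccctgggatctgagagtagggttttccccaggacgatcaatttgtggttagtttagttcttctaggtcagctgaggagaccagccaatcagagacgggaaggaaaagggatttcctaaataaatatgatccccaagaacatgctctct
Cxcl10, chr5:92348890-92349139, minus strand: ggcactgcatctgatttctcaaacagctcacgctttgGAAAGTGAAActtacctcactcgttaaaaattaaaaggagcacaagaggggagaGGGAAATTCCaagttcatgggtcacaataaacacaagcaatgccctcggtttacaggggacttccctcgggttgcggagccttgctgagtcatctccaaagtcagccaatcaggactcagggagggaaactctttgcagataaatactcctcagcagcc
Cxcl1, chr5:90890995-90891240, plus strand: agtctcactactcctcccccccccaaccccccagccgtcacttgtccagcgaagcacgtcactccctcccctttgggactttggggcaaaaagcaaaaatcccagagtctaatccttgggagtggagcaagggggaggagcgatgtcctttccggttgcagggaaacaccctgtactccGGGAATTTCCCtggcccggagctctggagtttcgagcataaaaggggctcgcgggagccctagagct

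The *Cxcl10* stretch held an ISRE match at positions -213 to -204 from the start and an NF-kB match at -159 to -150. The *Cxcl1* stretch held 2 overlapping NF-kB matches, at -71 to -62 and -70 to -61. The search covered all 250 bases, but the printed *Cxcl1* stretch has 246, since its last bases before the RefSeq start lie inside the gene as GENCODE draws it. No match to these letters was found in the *Cxcl9* stretch. Of the 4 other genes with a sequence, *Cxcl14* held an ISRE match and a GAS match, and *Cxcl13*, *Ccl22* and *Ccl6* held none. Among 32851 promoters of the same length, 1.21% held the NF-kB letters, 2.98% the ISRE letters and 7.02% the GAS letters. A match describes letters and does not show binding.

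Library totals ran from 21530083 to 38074411 expected counts. Hepatocyte markers (*Alb*, *Ttr*, *Apoa1*, *Cps1*, *Serpina1a*) summed to between 30280 and 130946 TPM (a length-corrected share of the transcripts of a library), so hepatocyte transcripts were abundant in every library. DEN-T-WD replicate 5 stood apart, with a hepatocyte sum of 30280 TPM against 109994 to 130946 TPM in the other 5 tumors. It also had the highest neutrophil marker sum of the tumors, 38.3 TPM against 7.38 to 25.8 TPM. Its sums of dendritic cell markers (8.15 TPM against 4.70 to 5.37 TPM) and recruited macrophage markers (138.7 TPM against 84.7 to 127.6 TPM) were also above those of the other tumors, and its endothelial sum (104.7 TPM against 121.9 to 136.9 TPM) was below them. Calls of the 10 genes that change without this library are given both ways. Pancreas markers (*Cpa1* and others) ranged from 9.23 to 3312 TPM among DEN-PT-WD libraries, and none of them was called in any comparison. In bulk tissue, fewer cells of a type and less RNA per cell cannot be told apart.

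The median level over the 25 libraries, in TPM, fell from *Ccl6* (28.6) through *Cxcl1* (19.2), *Cxcl9* (17.8), *Cxcl16* (9.79), *Cxcl10* (7.36), *Ccl5* (4.79), *Ccl2* (4.21), *Cxcl13* (3.28) and *Cxcl14* (1.70) to *Ccl22* (0.44). *Ccl22* rested on 4 to 51 counts per library and is the least precisely measured. *Cxcl1* had the widest range, 50.7-fold between its lowest and highest library, and *Ccl6* the narrowest, 4.54-fold. The panels of TPM by library show that 6 of the genes had their lowest group median in nonDEN-L-CD. *Cxcl1* and *Cxcl13* had their highest group medians in nonDEN-L-CD and DEN-T-WD. For *Cxcl13*, nonDEN-L-CD replicate 3 (1.91 TPM) and DEN-T-WD replicate 5 (0.60 TPM) were low all the same.

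**Figure D1:**
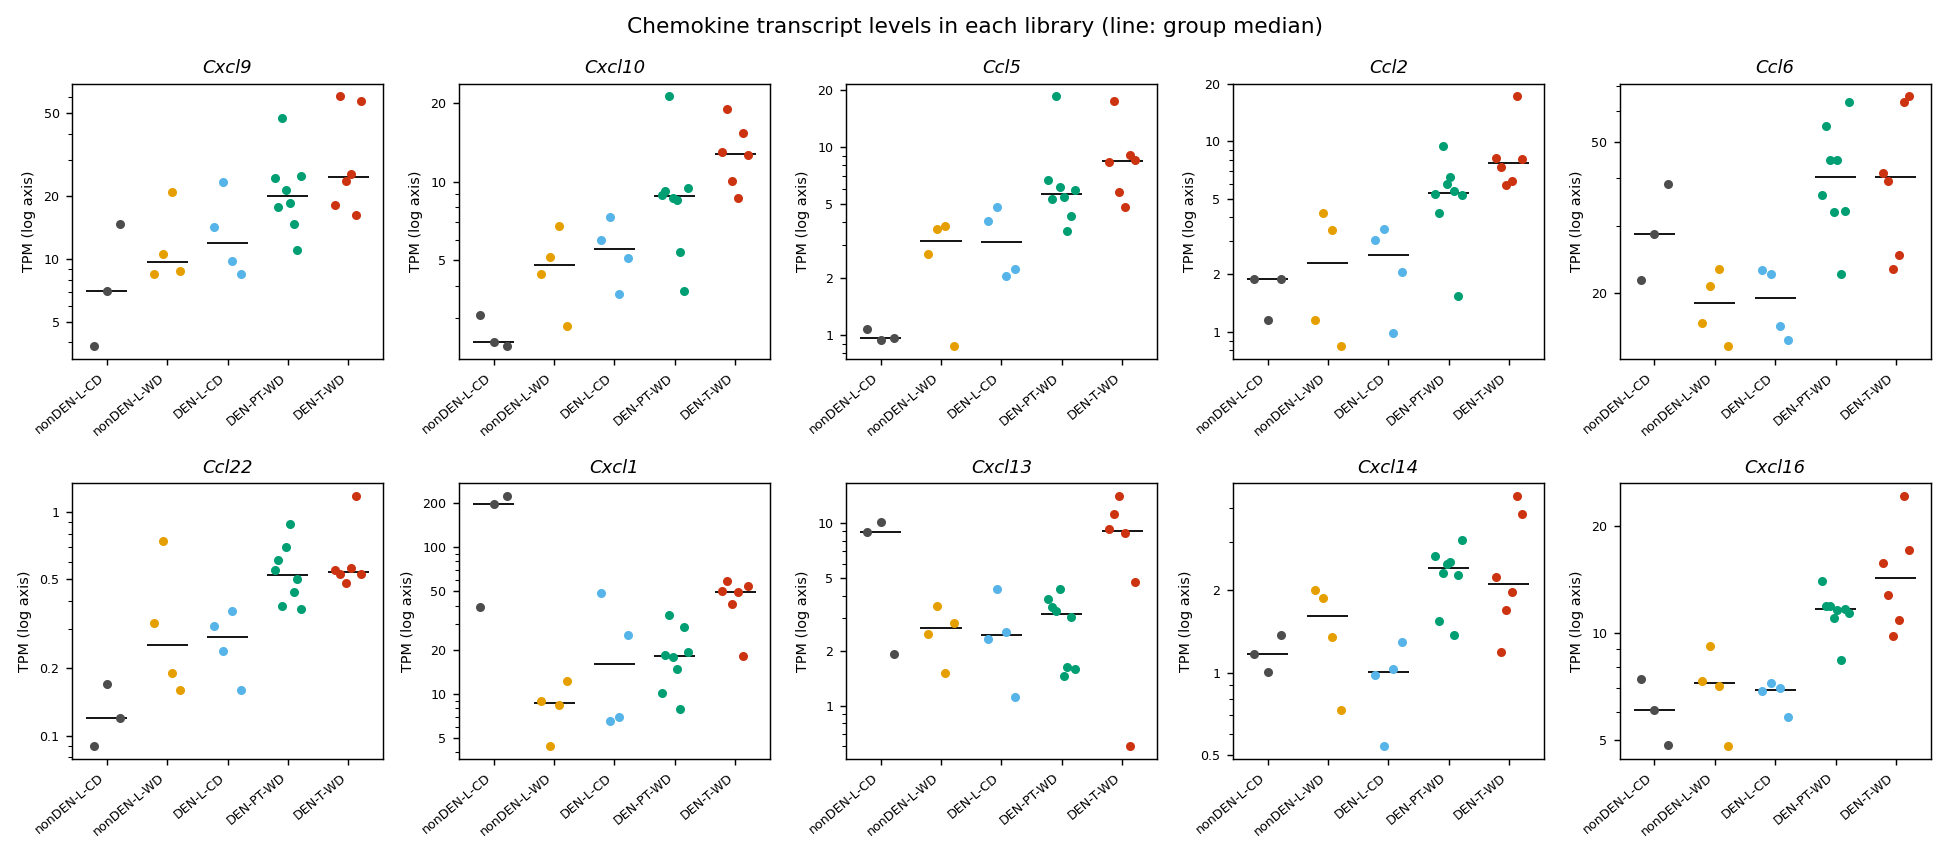
TPM of each chemokine gene on a log axis, 1 point per library in the 5 groups, with a line at the group median. For *Cxcl1* the 3 nonDEN-L-CD libraries (39.3 to 224 TPM) lie above all 4 nonDEN-L-WD libraries (4.42 to 12.2 TPM), while the lowest points of *Cxcl10* and *Ccl5* are in untreated livers.

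*Cxcl9* and *Cxcl10* encode ligands of CXCR3, a receptor of activated T cells and NK cells. *Cxcl9* (ENSMUSG00000029417, chr5:92321347-92328079, GRCm38, minus strand) stood at 3.83, 7.06 and 14.7 TPM in nonDEN-L-CD, at 8.53, 10.6, 20.9 and 8.78 TPM in nonDEN-L-WD, and at 14.2, 23.5, 9.78 and 8.46 TPM in DEN-L-CD. It ran from 11.1 to 47.6 TPM in DEN-PT-WD (median 20.0) and from 16.4 to 60.5 TPM in DEN-T-WD (median 24.7). Every tumor lay above every nonDEN-L-CD liver, and neighbouring groups in the order of medians overlapped. *Cxcl9* was higher in tumors (DEN-T-WD) than in nonDEN-L-WD livers by 1.14 on the log2 scale (SE 0.42, adjusted p = 0.029). That call ended when any of 5 of the 10 libraries was left out (nonDEN-L-WD replicate 1, 2 or 4, or DEN-T-WD replicate 2 or 6), with adjusted p between 0.0725 and 0.0811. It also ended with DESeq2 and apeglm, the shrunken difference being 0.92. No other comparison called *Cxcl9* in this fit.

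*Cxcl10* (ENSMUSG00000034855, chr5:92346638-92348889, minus strand) measured 3.09, 2.43 and 2.34 TPM in nonDEN-L-CD, 4.43, 5.14, 6.75 and 2.79 TPM in nonDEN-L-WD, and 5.99, 7.36, 3.71 and 5.10 TPM in DEN-L-CD. It ran from 3.82 to 21.3 TPM in DEN-PT-WD (median 8.80) and from 8.67 to 19.0 TPM in DEN-T-WD (median 12.8). All libraries of DEN-injected mice exceeded the highest nonDEN-L-CD library, and all tumors exceeded the highest nonDEN-L-WD liver. *Cxcl10* rose by 1.46 on the log2 scale (2.76-fold, SE 0.38, adjusted p = 0.0035) in DEN-PT-WD against nonDEN-L-CD. In DEN-T-WD versus nonDEN-L-WD it rose by 1.10 (SE 0.34, adjusted p = 0.0092), and the fold fell just under the 2-fold limit without nonDEN-L-WD replicate 4 (0.96) or DEN-T-WD replicate 2 (0.97), and with DESeq2 and apeglm (0.95). The difference of 1.01 of DEN-L-CD over nonDEN-L-CD did not pass (SE 0.41, adjusted p = 0.082), but it did in a fit of those groups alone (1.01, adjusted p = 0.023) and with DESeq2 (1.02, adjusted p = 0.0498). All exons of *Cxcl10* lie within *Art3*, on the opposite strand, and 133 of its 2252 exon bases (5.91%) lie in *Art3* exons. The use of strand in counting is not given in the sources used here, so without strand, reads of those bases cannot be told apart.

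*Ccl5* (RANTES, ENSMUSG00000035042, chr11:83525778-83530518, minus strand), made by T cells and NK cells among others, binds CCR1 among other receptors. It stood at 1.07, 0.94 and 0.96 TPM in nonDEN-L-CD, at 2.68, 3.65, 3.82 and 0.87 TPM in nonDEN-L-WD, and at 4.02, 4.82, 2.06 and 2.23 TPM in DEN-L-CD. It ran from 3.56 to 18.6 TPM in DEN-PT-WD (median 5.65) and from 4.79 to 17.6 TPM in DEN-T-WD (median 8.45). All 18 libraries of DEN-injected mice lay above all 3 nonDEN-L-CD libraries, and 1 nonDEN-L-WD liver, replicate 4, was as low as they were. *Ccl5* rose 5.40-fold in DEN-PT-WD against nonDEN-L-CD (log2 2.43, SE 0.55, adjusted p = 0.0011), a call that held without each library in turn. In DEN-L-CD against nonDEN-L-CD it rose by 1.67 (SE 0.59, adjusted p = 0.045), but this call ended without any of the 3 nonDEN-L-CD libraries or DEN-L-CD replicate 1 or 2 (adjusted p 0.0814 to 0.149), and with no filter on low counts (1.68, adjusted p = 0.069). In DEN-T-WD versus nonDEN-L-WD it rose by 1.38 (SE 0.45, adjusted p = 0.014), with an adjusted p of 0.055 without nonDEN-L-WD replicate 4.

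*Ccl2* (MCP-1, ENSMUSG00000035385, chr11:82035571-82037453, plus strand) recruits monocytes through CCR2. It measured 1.90, 1.16 and 1.90 TPM in nonDEN-L-CD, 1.16, 4.21, 3.41 and 0.84 TPM in nonDEN-L-WD, and 3.02, 3.48, 0.99 and 2.07 TPM in DEN-L-CD. It ran from 1.55 to 9.49 TPM in DEN-PT-WD (median 5.36) and from 5.91 to 17.25 TPM in DEN-T-WD (median 7.70). Every tumor exceeded every liver outside the DEN-PT-WD group, and 7 of the 8 peritumoral libraries exceeded all nonDEN-L-CD livers. *Ccl2* rose by 1.53 on the log2 scale (2.89-fold, SE 0.44, adjusted p = 0.0060) in DEN-T-WD versus nonDEN-L-WD, and by 1.26 (adjusted p = 0.016) without DEN-T-WD replicate 5, its highest library. It rose by 1.37 (SE 0.49, adjusted p = 0.026) in DEN-PT-WD against nonDEN-L-CD, and differed by 1.48, 1.15 and 1.49 without nonDEN-L-CD replicate 1, 2 or 3, past the p threshold in none of these fits (adjusted p = 0.053, 0.13 and 0.056). *Ccl2* lies within *Gm17268*, on the opposite strand, with 0 of its 1138 exon bases in exons of that gene.

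*Ccl6* (ENSMUSG00000018927, chr11:83587882-83593087, minus strand), a rodent chemokine of macrophages that binds CCR1, had the highest median of the 10 over all libraries, although *Cxcl1* had the higher group median in nonDEN-L-CD and DEN-T-WD. It stood at 21.7, 28.6 and 38.8 TPM in nonDEN-L-CD, at 16.7, 20.9, 23.1 and 14.5 TPM in nonDEN-L-WD, and at 23.0, 22.4, 16.4 and 15.1 TPM in DEN-L-CD. It ran from 22.4 to 63.3 TPM in DEN-PT-WD (median 40.4) and from 23.1 to 65.8 TPM in DEN-T-WD (median 40.3). The lowest tumor lay barely above the highest nonDEN-L-WD and DEN-L-CD livers, and both WD tissues of DEN-injected mice overlapped nonDEN-L-CD. *Ccl6* was not called in any pairwise comparison. It came nearest in DEN-PT-WD against nonDEN-L-WD, with a difference of 0.89 that passed the p threshold and not the 2-fold limit (SE 0.27, adjusted p = 0.035). In DEN-T-WD versus nonDEN-L-WD the difference of 0.77 likewise passed on p alone (adjusted p = 0.027), and it was 0.65 (adjusted p = 0.059) without DEN-T-WD replicate 5. *Ccl6* lies within *E230016K23Rik*, on the opposite strand, with 0 of its 1795 exon bases in exons of that gene.

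*Ccl22* (ENSMUSG00000031779, chr8:94745590-94751699, plus strand), made by dendritic cells and macrophages, attracts regulatory T cells through CCR4. It was at 0.09, 0.17 and 0.12 TPM in nonDEN-L-CD, at 0.32, 0.74, 0.19 and 0.16 TPM in nonDEN-L-WD, and at 0.31, 0.24, 0.36 and 0.16 TPM in DEN-L-CD. It ran from 0.37 to 0.88 TPM in DEN-PT-WD (median 0.53) and from 0.48 to 1.18 TPM in DEN-T-WD (median 0.54). Both WD tissues of DEN-injected mice lay wholly above nonDEN-L-CD and DEN-L-CD. *Ccl22* rose 3.35-fold in DEN-PT-WD against nonDEN-L-CD (log2 1.74, SE 0.38, adjusted p = 0.00079), a call kept without each library in turn. Against DEN-L-CD the difference of 0.97 passed on p alone (adjusted p = 0.049). In DEN-T-WD versus nonDEN-L-WD it was 1.99-fold higher, just under the 2-fold limit (adjusted p = 0.012), and just over it with DESeq2 (log2 1.01, adjusted p = 0.016). On the log2 scale that difference was 1.52 without nonDEN-L-WD replicate 2 (adjusted p = 0.00043) and 0.76 without DEN-T-WD replicate 5 (adjusted p = 0.036), and it passed both limits without any other tumor library (1.01 to 1.05). In DEN-PT-WD compared with nonDEN-L-WD, *Ccl22* was past both limits, of the fits with 1 library left out, only without nonDEN-L-WD replicate 2 (1.37, adjusted p = 0.0086).

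*Cxcl1* (KC, ENSMUSG00000029380, chr5:90891241-90893115, plus strand), a ligand of CXCR2 that attracts neutrophils, changed most. It measured 39.3, 197 and 224 TPM in nonDEN-L-CD, 8.93, 4.42, 8.37 and 12.2 TPM in nonDEN-L-WD, and 49.0, 6.56, 6.95 and 25.3 TPM in DEN-L-CD. It ran from 7.94 to 34.6 TPM in DEN-PT-WD (median 18.2) and from 18.2 to 58.5 TPM in DEN-T-WD (median 49.7). The highest 2 libraries of the whole set were untreated CD livers, the third of that group lay within the tumor range, and 5 of the 6 tumors exceeded every peritumoral library.

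Against nonDEN-L-CD, *Cxcl1* fell by 4.31 on the log2 scale in nonDEN-L-WD (19.8-fold lower, SE 0.67, adjusted p = 0.00012). It fell by 2.90 in DEN-L-CD (7.45-fold lower, SE 0.63, adjusted p = 0.0024) and by 3.41 in DEN-PT-WD (10.6-fold lower, SE 0.51, adjusted p = 1.8e-05). All these calls held without each library in turn, although DEN-L-CD replicate 1, at 49.0 TPM, overlapped nonDEN-L-CD replicate 1. The 3 comparisons share the same 3 nonDEN-L-CD livers. The neutrophil marker sum (*S100a8*, *S100a9*, *Ly6g*, *Retnlg*, *Csf3r*) in those livers was 7.50, 26.5 and 33.5 TPM, in the same order as *Cxcl1*, and in nonDEN-L-WD it was 6.00 to 8.30 TPM. *Ly6g* was listed at 0 in all 11 libraries of the 3 liver groups, and the part of neutrophils in the *Cxcl1* result was not tested.

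In tumors *Cxcl1* rose 4.07-fold against nonDEN-L-WD (log2 2.02, SE 0.58, adjusted p = 0.0059), and by 2.20 (adjusted p = 0.0027) without DEN-T-WD replicate 5. Against DEN-PT-WD it rose by 1.12 (SE 0.44, adjusted p = 0.047). This last call sat at the threshold: it ended when any of 11 of the 14 libraries was left out, 6 peritumoral (replicates 1, 2, 4, 5, 6 and 8) and 5 tumor libraries (replicates 1, 2, 3, 4 and 6), at adjusted p up to 0.0898. It also ended with no filter on low counts (1.12, adjusted p = 0.067) and with DESeq2 and apeglm, where the difference was 0.68. Without tumor replicate 5, the tumor with the least *Cxcl1*, the difference was 1.30 (adjusted p = 0.021).

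*Cxcl13* (ENSMUSG00000023078, chr5:95956951-95961068, plus strand) attracts B cells through CXCR5. It stood at 8.98, 10.2 and 1.91 TPM in nonDEN-L-CD, at 2.47, 3.53, 1.5 and 2.83 TPM in nonDEN-L-WD, and at 2.32, 4.37, 2.52 and 1.11 TPM in DEN-L-CD. It ran from 1.45 to 4.35 TPM in DEN-PT-WD (median 3.17) and from 0.60 to 14.1 TPM in DEN-T-WD (median 8.995). Tumors were split: 5 stood between 4.75 and 14.1 TPM, above every peritumoral library, and replicate 5 was the lowest library of all. *Cxcl13* rose by 1.41 on the log2 scale (2.67-fold, SE 0.46, adjusted p = 0.017) in DEN-T-WD against DEN-PT-WD, and by 1.67 (adjusted p = 0.00069) without replicate 5. The call ended without DEN-T-WD replicate 3, its highest library (1.16, adjusted p = 0.058). Against nonDEN-L-WD the tumor difference of 1.31 did not pass (adjusted p = 0.060), but became 1.56 (adjusted p = 0.0054) without replicate 5 and 1.43 (adjusted p = 0.0496) without replicate 6, both past the threshold, and it passed with DESeq2 (1.31, adjusted p = 0.040). In DEN-PT-WD against nonDEN-L-CD *Cxcl13* fell by 1.65 (SE 0.54, adjusted p = 0.016), a call that ended without nonDEN-L-CD replicate 1 or 2, its high livers (adjusted p = 0.076 and 0.11). In nonDEN-L-WD compared with nonDEN-L-CD it passed, of the fits with 1 library left out, only without nonDEN-L-CD replicate 3 (-1.998, adjusted p = 0.041).

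*Cxcl14* (ENSMUSG00000021508, chr13:56288643-56296551, minus strand), a chemokine of epithelial and stromal cells, was not called in any comparison. It ran from 1.01 to 1.38 TPM in nonDEN-L-CD, from 0.73 to 2.00 TPM in nonDEN-L-WD, from 0.54 to 1.30 TPM in DEN-L-CD, from 1.37 to 3.05 TPM in DEN-PT-WD and from 1.19 to 4.43 TPM in DEN-T-WD. Peritumoral libraries lay wholly above DEN-L-CD livers, by 0.93 on the log2 scale (SE 0.30, adjusted p = 0.052), a difference that passed without DEN-PT-WD replicate 6 (1.00, adjusted p = 0.031).

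*Cxcl16* (ENSMUSG00000018920, chr11:70453983-70459984, minus strand), a membrane-bound ligand of CXCR6 that is shed as a chemokine and also acts as a scavenger receptor, changed by less but evenly. It stood at 7.42, 6.08 and 4.83 TPM in nonDEN-L-CD, at 7.31, 9.20, 7.11 and 4.81 TPM in nonDEN-L-WD, and at 6.88, 7.23, 6.98 and 5.80 TPM in DEN-L-CD. It ran from 8.41 to 14.0 TPM in DEN-PT-WD (median 11.6) and from 9.79 to 24.3 TPM in DEN-T-WD (median 14.2). Peritumoral and tumor libraries lay above all CD livers, and tumors above all nonDEN-L-WD livers. Its differences passed on p alone, under the 2-fold limit, in 4 comparisons: DEN-PT-WD against nonDEN-L-CD (0.60, adjusted p = 0.0095), nonDEN-L-WD (0.56, adjusted p = 0.028) and DEN-L-CD (0.54, adjusted p = 0.036), and DEN-T-WD versus nonDEN-L-WD (0.78, adjusted p = 0.00064), the last being 0.64 (adjusted p = 0.0012) without DEN-T-WD replicate 5. Of all genes, 45.3%, 12.4%, 10.6% and 49.0% passed on p alone in these comparisons, in the same order. Of its 3021 exon bases, 552 (18.3%) lie in exons of *Zmynd15* on the opposite strand, where without strand the reads of the pair cannot be told apart.

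**Figure D2:**
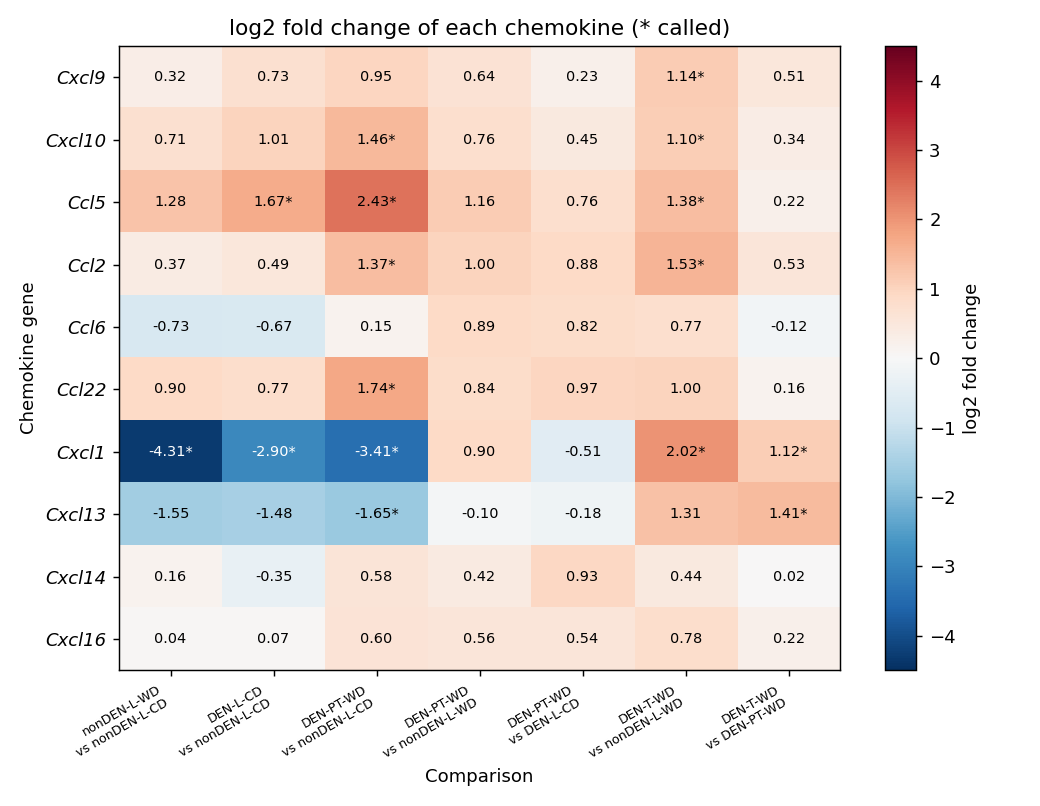
Log2 fold change of each chemokine (rows) in the 7 pairwise comparisons (columns), first group minus second, with an asterisk where the adjusted p was at most 0.05 and the absolute log2 fold change at least 1. *Cxcl1* runs from -4.31 in nonDEN-L-WD against nonDEN-L-CD to 2.02 in DEN-T-WD versus nonDEN-L-WD.

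For WD alone, in untreated mice, 1 of the 10 genes was called, *Cxcl1*, against 5.28% of all genes tested, and it was lower, as were 2.04% of all genes. The median log2 fold change of the 10 was 0.24, against 0.01 over all genes. Of the receptors listed, 16 of 21 were tested, and 3 were higher and 1 lower. *Cx3cr1*, of monocytes and macrophages, rose by 2.13 (adjusted p = 0.0090), *Ccr7* by 1.90 (adjusted p = 0.012), and *Cxcr2*, the receptor of the *Cxcl1* product, fell by 1.81 (adjusted p = 0.0071). Of the other chemokine ligands, 17 of 25 were tested, and *Ccl28* and *Ccl7* were called higher, on 1 to 4 and 0 to 2 counts per CD liver, too few for a fold to be given. The NF-kB response list had 1 of 14 tested lower, with a median of -0.24 and 4 of 14 above 0. The interferon gamma response list had 0 of 18 called. Neutrophil markers were lower for 3 of 4 tested, *S100a8*, *S100a9* and *Retnlg*. Recruited macrophage markers were higher for 3 of 6, *Gpnmb*, *Trem2* and *Itgax*, while *Cd9* differed the other way (-0.83, adjusted p = 0.0026, under the 2-fold limit), and the summed level of the list, 17.2 to 39.5 TPM, overlapped the 26.7 to 33.5 TPM of CD livers. Of the B cell markers 1 of 4 was higher, *Cd79a* (1.65), with sums of 2.26 to 4.52 TPM, all above the 0.56 to 1.53 TPM of CD livers. The stellate cell and fibroblast list had 2 of 6 higher, *Col3a1* (1.39) and *Col1a1* (1.26), and the cholangiocyte list *Sox9* lower (-1.36) although its sums, 45.2 to 68.6 TPM, lay above 32.4 to 39.1 TPM. No marker of the other lists was called. The part of these cells in the chemokine values was not tested.

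For DEN alone, on CD, 2 of the 10 genes were called, *Cxcl1* lower and *Ccl5* higher, against 4.70% of all genes called, 1.93% lower and 2.76% higher. The median of the 10 was 0.28, against 0.02 over all genes. Receptors were higher for 5 of 16 and lower for 1. *Ccr7* (2.21), *Cxcr5* (2.11) and *Cx3cr1* (1.60) rose most, and *Cxcr2* fell by 1.40 (adjusted p = 0.032). *Ccl24* (1.56) and *Ccl7* (6 to 11 counts per library against 0 to 2) were the other ligands higher. Of the interferon gamma response list, *Gbp5* (1.19) and *Gbp3* (1.02) rose among 18 tested, and of the NF-kB response list, *Tnfaip3* fell by 1.01 and *Icam1* by 1.00 among 14. B cell markers were higher for 3 of 4, with sums of 2.18 to 6.96 TPM against 0.56 to 1.53 TPM, and T cell marker sums were 3.85 to 7.03 TPM against 2.89 to 4.75 TPM, with 1 of 6 higher, *Cd8a* (2.16). Of 4 neutrophil markers tested, *Retnlg* fell by 2.40 (adjusted p = 0.0092), and sums were 10.2 to 22.7 TPM against 7.50 to 33.5 TPM. Cholangiocyte sums, 39.9 to 66.0 TPM, lay above 32.4 to 39.1 TPM, with no marker called. The part of these cells in the chemokine values was not tested.

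With DEN and WD together, in DEN-PT-WD against nonDEN-L-CD, 6 of the 10 genes were called, against 13.3% of all genes. *Ccl5*, *Ccl22*, *Cxcl10* and *Ccl2* were the 4 called higher (10.2% of all genes) and *Cxcl1* and *Cxcl13* the 2 called lower (3.08%). The median of the 10 was 0.78, against 0.04 over all genes. Receptors were higher for 6 of 16: *Cx3cr1* (3.34), *Ccr7* (2.47) and *Ackr1* (2.03, an atypical receptor of endothelium and red cells) rose most, and *Cxcr2* fell by 1.44 (adjusted p = 0.00405). Other ligands were higher for 5 of 17, with *Cxcl17*, *Ccl7* and *Ccl24* most. *Ccl24* rose by 1.78, while *Cxcl17* (0 to 29 counts against 0 to 1) and *Ccl7* (10 to 22 counts against 0 to 2) had too few counts in CD livers for a fold. The interferon gamma list had 3 of 18 higher (*Gbp5* 1.46, *Gbp3* 1.39, *Cd274* 1.17), and the NF-kB list 3 of 14 (*Il1rn* 1.32, *Vcam1* 1.08, *Ltb* 1.01). Recruited macrophage markers were higher for 4 of 6, with sums of 35.1 to 77.2 TPM, all above the 26.7 to 33.5 TPM of CD livers. B cell markers were higher for 4 of 4 and NK cell markers for 2 of 4 tested. Neutrophil markers were lower for 3 of 4 tested: *S100a8* fell by 1.13, *S100a9* fell by 1.05 and *Retnlg* fell by 1.99. The stellate cell and fibroblast list had 2 of 6 higher, the dendritic cell list 1 of 5 (*Flt3*, 1.37), and the T cell (*Cd8a*), Kupffer cell (*Cd5l*) and cholangiocyte (*Spp1*) lists 1 each. Sums lay wholly above those of CD livers for B cell (3.21 to 6.67 TPM against 0.56 to 1.53 TPM), dendritic cell (4.46 to 6.72 against 2.63 to 3.39 TPM), endothelial (119.7 to 150.9 against 88.6 to 102.6 TPM), stellate (222 to 435 against 145 to 160 TPM) and cholangiocyte markers (72.7 to 325 against 32.4 to 39.1 TPM). Only 3 of the 5 cholangiocyte differences were above 0, with a median of 0.06, so those markers did not rise together. The part of these cells in the chemokine values was not tested.

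When DEN-PT-WD was compared with either single exposure, no chemokine of the 10 was called by edgeR. Against nonDEN-L-WD the count was 0 of 10 (2.76% of all genes called), and 2 of 10 passed on adjusted p alone (12.4% of all genes). DESeq2 called 1 (*Ccl5*, 1.16, adjusted p = 0.043) and DESeq2 with apeglm 0. *Ccl5* also passed in edgeR without DEN-PT-WD replicate 6 (1.25, adjusted p = 0.049). Against DEN-L-CD it was 0 of 10 (1.90% of all genes), with 2 of 10 passing on adjusted p alone (10.6% of all genes) and 0 called by either DESeq2 fit. The point estimates were above 0 for 9 and 8 of the 10, with medians of 0.80 and 0.65 against 0.0028 and 0.02 over all genes. *Ackr1* (1.76), *Ccr1* (1.51) and *Cx3cr1* (1.21) were the receptors higher against nonDEN-L-WD, and *Cx3cr1* (1.74) and *Ccr2* (1.30) those higher against DEN-L-CD. *Cxcl17*, with 0 to 1 count per library in either reference group, was the other ligand called higher in both, and *Il1rn* the NF-kB list gene, by 1.93 and 1.47. No gene of the interferon gamma list was called in either. Recruited macrophage markers were higher for 3 of 6 and 4 of 6, *Gpnmb* rising by 2.05 and 3.88. *Lyve1* of the endothelial list (1.09), *Cd8a* of the T cell list (1.67) and *Spp1* of the cholangiocyte list (1.46) were also called higher against nonDEN-L-WD. *Spp1* (1.46), *Col1a1* (1.59) and *Col3a1* (1.37) were called higher against DEN-L-CD. Endothelial sums, 119.7 to 150.9 TPM, lay above both nonDEN-L-WD (74.7 to 115.4 TPM) and DEN-L-CD (90.6 to 100.1 TPM), as did cholangiocyte sums. Of the 5 cholangiocyte differences 4 were above 0 in each comparison, with medians of 0.25 and 0.26, and only *Spp1* was called. Dendritic cell, stellate and recruited macrophage sums lay above those of DEN-L-CD but not of nonDEN-L-WD. The part of these cells was not tested.

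In tumors against peritumoral liver, 2 of the 10 genes were called, *Cxcl13* and *Cxcl1*, both higher, against 7.90% of all genes and 4.81% called higher. The count was also 2 without DEN-T-WD replicate 5, against 8.31% of the 15512 genes then tested. The median of the 10 was 0.28, against 0.01 over all genes. Of the receptors only *Ccr3*, of eosinophils, was called (2.23, SE 0.48, adjusted p = 0.00091), and its difference was 1.30 (adjusted p = 0.0069) without DEN-T-WD replicate 5. *Cxcr5*, the receptor of the *Cxcl13* product, differed by 0.54 (adjusted p = 0.30) and *Cxcr2* by 0.66 (adjusted p = 0.12). *Cxcl17* rose by 2.09, from 0 to 29 counts per peritumoral library to 3 to 79 per tumor, and *Ccl24* fell by 1.04. *Cxcl11*, another CXCR3 ligand, differed by 0.86 (adjusted p = 0.042, under the 2-fold limit), and by 1.10 (adjusted p = 0.00027), past both limits, without DEN-T-WD replicate 5. On the NF-kB list *Ltb*, which encodes lymphotoxin beta, rose by 1.71 and *Il1rn* by 1.58, and on the interferon gamma list no gene of 18 was called. Kupffer cell markers were lower for 3 of 6, and *Marco* fell by 2.04, *Timd4* fell by 1.68 and *Clec4f* fell by 1.04, while B cell marker sums, 3.70 to 8.42 TPM, overlapped the 3.21 to 6.67 TPM of peritumoral liver. Recruited macrophage sums were 84.7 to 139 TPM, all above the 35.1 to 77.2 TPM of peritumoral liver, with 6 of 6 differences above 0 and no marker called. Without DEN-T-WD replicate 5 *Trem2* turned to -0.12 (adjusted p = 0.77). Cholangiocyte markers were higher for 2 of 5, *Spp1* (1.97) and *Sox9* (1.38), with sums of 385 to 833 TPM, all above the 72.7 to 325 TPM of peritumoral liver, while *Krt19* (-0.96, adjusted p = 0.11) and *Krt7* (-0.70, adjusted p = 0.16) lay the other way. Hepatocyte markers were higher for 1 of 5, *Apoa1* (1.04), and for 3 of 5 without DEN-T-WD replicate 5, while *Cps1* (-0.78, adjusted p = 0.0025, under the 2-fold limit) and *Ttr* (-0.43, adjusted p = 0.0504) lay the other way, and sums in the other 5 tumors lay above the 38368 to 66415 TPM of peritumoral liver. The part of these cells was not tested.

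Against untreated liver on the same diet, tumors had 5 of the 10 genes called, all higher (*Cxcl1*, *Ccl2*, *Ccl5*, *Cxcl9* and *Cxcl10*), against 15.7% of all genes and 10.4% called higher. The point estimate was above 0 for all 10, with a median of 1.12 against 0.02 over all genes. Without DEN-T-WD replicate 5 the count was 6, *Cxcl13* being added, against 15.2% of the 15512 genes then tested (1474 of them higher), and *Ccl5* (1.40), *Cxcl9* (1.28) and *Cxcl10* (1.08) stayed called. Receptors were higher for 7 of 16, *Ccr3* (13 to 167 counts per library against 0 to 5), *Ccr1* (2.42) and *Cx3cr1* (1.99) most, with *Ccr2* at 1.51 (adjusted p = 0.00048) and *Cxcr2* at 1.02 (adjusted p = 0.043). Without DEN-T-WD replicate 5, 6 of 16 receptors were higher, with *Ccr1* at 1.85 and *Ccr2* at 1.25, and *Cxcr2* no longer passed (0.79, adjusted p = 0.11). Of the other ligands 6 were higher, among them *Cxcl17* (3 to 79 counts against 0 to 1) and *Ccl9* (1.77), and *Ccl28* was called lower (-1.77), with 3 to 12 counts per tumor against 7 to 66, where the highest of the 4 nonDEN-L-WD libraries stood at 0.89 TPM and their median at 0.125 TPM. The NF-kB list had 5 of 14 higher, *Il1rn* (3.51), *Ltb* (2.67) and *Icam1* (1.38) most, and the interferon gamma list 1 of 18, *Ifngr1* (1.51). Without that library the NF-kB count was 4, with *Il1rn* at 3.68 and *Ltb* at 2.76. Recruited macrophage markers were higher for 5 of 6, with sums of 84.7 to 139 TPM, all above the 17.2 to 39.5 TPM of nonDEN-L-WD. NK cell markers were higher for 2 of 4 tested, *Prf1* (1.94) and *Ncr1* (1.66), with sums of 0.99 to 1.90 TPM, all above the 0.33 to 0.76 TPM of nonDEN-L-WD, and of 6 T cell markers *Cd8a* was higher (1.68). Cholangiocyte markers were higher for 2 of 5 (*Spp1* and *Sox9*) and stellate cell and fibroblast markers for 2 of 6 (*Col1a1* and *Col3a1*), each list having 3 differences above 0. Kupffer cell markers were lower for 2 of 6. The hepatocyte list had 1 higher, *Apoa1* (1.01), and 1 lower, *Cps1* (-1.13), and *Lyve1* and *Cd209a* were higher on the endothelial and dendritic cell lists. Without DEN-T-WD replicate 5 *Cd209a* fell under the 2-fold limit (0.93, adjusted p = 0.029), and no dendritic cell marker was called. Neutrophil markers were higher for 2 of 4, with sums of 7.38 to 38.3 TPM against 6.00 to 8.30 TPM, but for 0 of 4 in edgeR without DEN-T-WD replicate 5. The part of these cells in the chemokine values was not tested.

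The difference between diets was itself compared between injected and untreated mice, as DEN-PT-WD minus DEN-L-CD, less nonDEN-L-WD minus nonDEN-L-CD. For this interaction 2 of the 10 genes were called, *Cxcl1* and *Ccl6*, both above 0, against 2.75% of all genes and 1.57% called above 0. *Cxcl1* differed on WD by -4.31 without DEN and by -0.51 with DEN, an interaction of 3.80 (SE 0.83, adjusted p = 0.0071) that held without each library in turn. It draws on nonDEN-L-CD, where replicates 2 and 3 stood at 197 and 224 TPM and replicate 1 at 39.3 TPM. Leaving out 1 library always kept replicate 2 or 3, so these fits cannot show how far the call hangs on them. *Ccl6* differed by -0.73 without DEN and by 0.82 with it, an interaction of 1.56 (SE 0.42, adjusted p = 0.024). The *Ccl6* call ended without nonDEN-L-CD replicate 2 or 3, nonDEN-L-WD replicate 1 or DEN-L-CD replicate 3 (adjusted p 0.0506 to 0.0950). In injected mice the WD tissue was peritumoral and the CD tissue was liver that may hold small tumors. The diet and the nearness of a tumor therefore cannot be told apart in this contrast. *Icam1* (1.87), *Tnfaip3* (1.52) and *Il1rn* (2.08) of the NF-kB list were called in the same direction as *Cxcl1*, no gene of the interferon gamma list was called, and the receptor *Ackr4* was called the other way (-1.54). Of the neutrophil markers *Retnlg* was called (3.04), as were *Sox9* (1.62), *Lyve1* (1.52) and *Cd9* (1.38) of the cholangiocyte, endothelial and recruited macrophage lists, and the part of these cells was not tested.

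**Figure D3:**
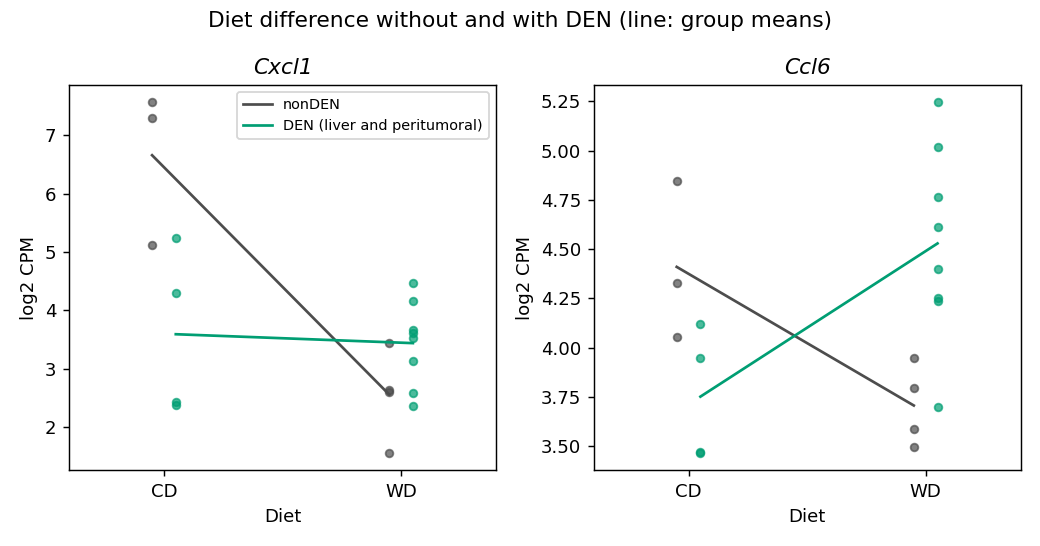
Log2 CPM (counts scaled to the size of the library) of *Cxcl1* and *Ccl6* by diet, 1 point per library, with lines joining group means for untreated mice (grey) and DEN-injected mice (green, liver on CD and peritumoral liver on WD). The *Cxcl1* line falls steeply without DEN and is nearly level with it, and the *Ccl6* lines cross.

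Between libraries of the same group, some chemokines varied together. As a description over the 25 libraries, which share one depth and one RNA composition per library, Pearson's r of deviations from group means was 0.88 for *Ccl5* and *Cxcl10*, 0.73 for *Ccl2* and *Cxcl10*, 0.65 for *Ccl6* and *Cxcl16*, 0.64 for *Ccl5* and *Cxcl9* and 0.62 for *Cxcl9* and *Cxcl10*. Over all 45 pairs the median was 0.11, and the lowest was -0.59, for *Cxcl13* and *Cxcl14*. DEN-PT-WD replicate 3 was the highest peritumoral library for *Ccl2*, *Ccl5*, *Cxcl1*, *Cxcl9* and *Cxcl10*, and DEN-T-WD replicate 2 the highest tumor for *Ccl5*, *Cxcl1*, *Cxcl9* and *Cxcl10*. These libraries also had the highest T cell marker sums of their groups, 13.3 and 12.1 TPM, and the part of these cells was not tested. DEN-T-WD replicate 5, the tumor with the most dendritic cell and recruited macrophage marker transcripts, was the highest tumor for *Ccl2*, *Ccl22*, *Cxcl14* and *Cxcl16* and the lowest for *Cxcl1*, *Cxcl9* and *Cxcl13*, and the part of these cells was not tested.

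**Figure D4:**
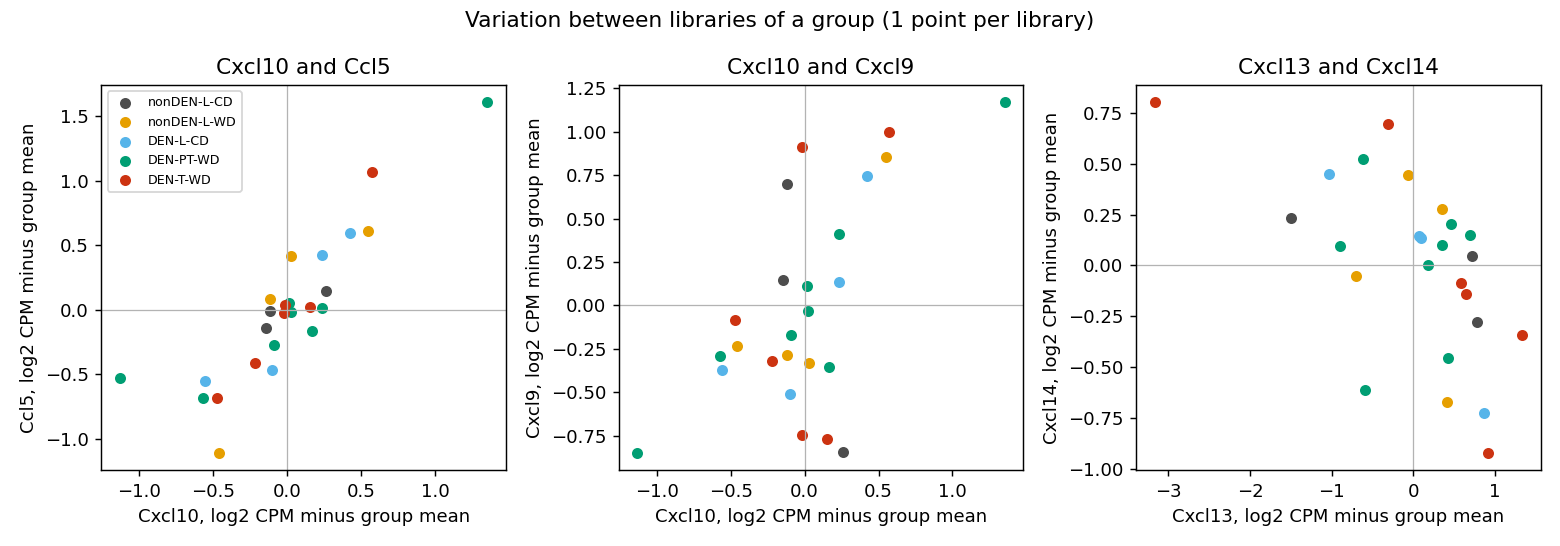
Deviation of each library from its group mean, in log2 CPM, for *Cxcl10* against *Ccl5* and against *Cxcl9*, and for *Cxcl13* against *Cxcl14*, coloured by group. The first pair (r = 0.88) lies near a rising line, and 1 tumor library lies far to the left in the last (r = -0.59).

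Among all 15625 genes, those most like each chemokine over the 25 libraries, by Pearson's r of log2 CPM, were as follows. *Cxcl16* followed *Il10rb* (0.98) and *Cyth4* (0.95), and *Cxcl1* followed *Serpina3n* (0.93) and *Itih4* (0.91), which encode secreted acute-phase proteins of hepatocytes. *Ccl5* followed *Slamf8* (0.91) and *Itga4* (0.91), and *Cxcl10* followed *Slamf8* (0.89) and *Gbp9* (0.88). *Ccl22* followed *Dsp* (0.91) and *Nagk* (0.89), *Ccl2* followed *Cdca8* and *Gpr141* (0.89 each), and *Ccl6* followed *Itgb3* (0.89) and *Cd38* (0.86). *Cxcl9* followed *Ms4a4b* (0.86) and *H2-Q4* (0.80), *Cxcl14* followed *Tmc8* (0.83) and *Scube1* (0.79), and *Cxcl13* followed *Rcbtb1* (0.83) and *Ensa* (0.82). These values include differences between groups and carry no test.

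The receptors of these ligands were mostly at low levels. *Ccr2*, for the *Ccl2* product, had group medians from 1.00 in nonDEN-L-CD to 5.83 TPM in DEN-T-WD. *Cxcr3*, shared by the *Cxcl9* and *Cxcl10* products, had medians of 0.21 to 0.52 TPM and was not called in any comparison, nor was *Cxcr6*, for the *Cxcl16* product, at 0.58 to 1.04 TPM. *Cxcr5*, for the *Cxcl13* product, had medians of 0.08 to 0.37 TPM on 0 to 25 counts per library, and *Cxcr2*, for the *Cxcl1* product, of 0.15 to 0.59 TPM. *Ccr4*, for the *Ccl22* product, had medians of 0.01 to 0.04 TPM and did not pass the filter. *Cxcl1* and *Cxcr2* were both lower in all 3 comparisons with nonDEN-L-CD, which share those livers, while *Cxcl13* fell where *Cxcr5* rose in DEN-PT-WD against nonDEN-L-CD (1.55, adjusted p = 0.045).

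**Figure D5:**
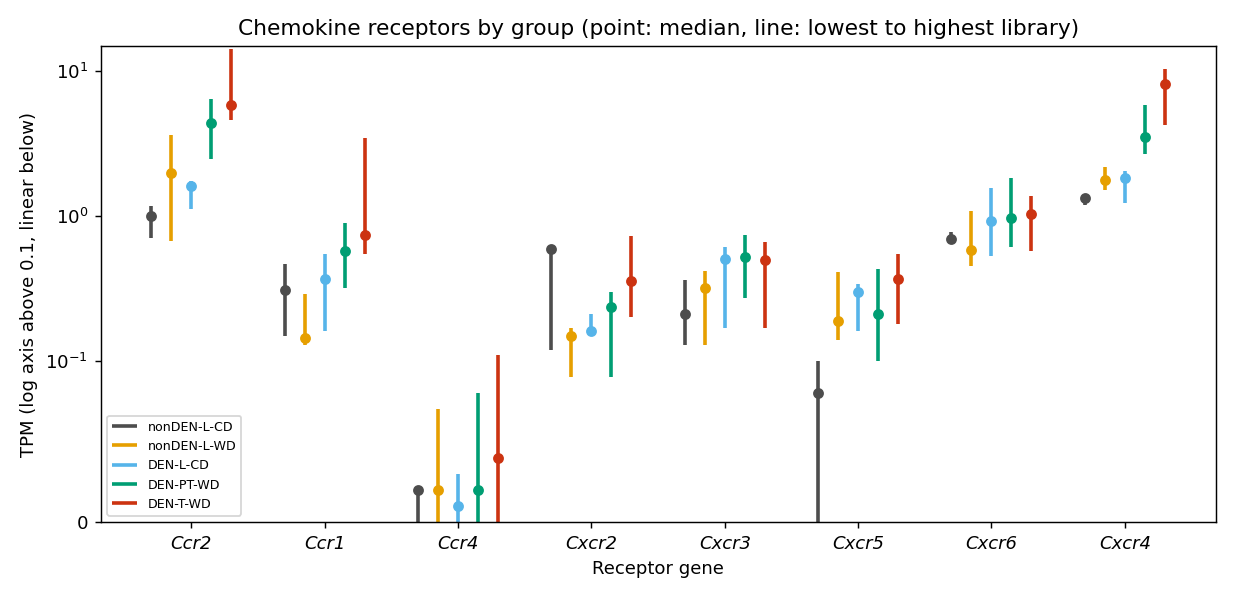
TPM of 8 chemokine receptors by group (log axis above 0.1, linear below), points at the median and lines from the lowest to the highest library. *Ccr2* and *Cxcr4* have the highest medians of those plotted, in DEN-T-WD, and *Cxcr2* has its highest median in nonDEN-L-CD.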

How the data were processed

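RNA was sequenced from 25 mouse liver and liver tumor samples. Groups and replicate numbers came from the sample titles, while the harvest age was taken from the paper's legends. Per the labels and the paper, the authors checked reads with FastQC and aligned them to GRCm38 with STAR and RSEM. For each gene the authors deposited an expected count (estimated reads, not normalized), a TPM value and an FPKM value; FPKM was not used here. The annotation release, the versions of STAR and RSEM and the use of strand are not given in the sources used here. Ensembl identifiers were matched to GENCODE M21 (48435 of 48795).

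Expected counts were rounded. Testing used edgeR 4.0.16 under R 4.3.3 (quasi-likelihood test, TMM, filterByExpr with a minimum count of 10) in 1 fit over 5 groups, with Benjamini-Hochberg adjustment over 15625 genes. A call needed an adjusted p up to 0.05 together with a log2 difference of 1 or more in size, the study's thresholds. DESeq2 1.42.0 with and without apeglm 1.24.0, other filters and scalings, a replicate block and each library left out were alternatives. Log2 CPM used a prior count of 2. Counting limits the precision of genes with few counts.

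The 10 genes and all lists were chosen with earlier results of these data known. Text names all 10 genes, their receptors, at most 3 called genes of each list with the largest change in a comparison, and the 2 genes most like each. *Ccl19* could not be matched, as its symbol is not unique, and 1 receptor is not reported here. On simulated counts with 200 genes changed 4-fold, the test recovered 98.5% in DEN-T-WD versus DEN-PT-WD (15329 genes) and 94.5% in nonDEN-L-WD versus nonDEN-L-CD (15353 genes). Python 3.11.15, NumPy 2.4.6, pandas 2.3.3 and Matplotlib 3.10.9 were used.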

Additional observations from a re-analysis of the deposited data

Results flagged for a closer look

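In groups of 4 to 10 libraries, 7 of 40 gene and group combinations held a library far from the rest by Dixon's criterion on TPM. The nominal rate of about 1 in 20 holds for independent, normally distributed values. The combinations share libraries and all 7 flagged values were high, so no excess over that rate can be read here. DEN-PT-WD replicate 3 was high for *Ccl5* (18.63 TPM), *Cxcl9* (47.6 TPM) and *Cxcl10* (21.31 TPM). DEN-T-WD replicate 5, the tumor with the lowest hepatocyte marker sum, was high for *Ccl2* (17.25 TPM) and *Ccl22* (1.18 TPM). DEN-T-WD replicate 2 was high for *Ccl5* (17.59 TPM), and nonDEN-L-WD replicate 3 for *Cxcl9* (20.9 TPM).

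The difference between diets differed between DEN-injected and untreated mice, by the edgeR interaction test, for *Cxcl1* (3.80 on the log2 scale, adjusted p = 0.0071) and *Ccl6* (1.56, adjusted p = 0.024).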

How the results depend on the processing

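Of 478 values of a gene in a comparison under another setting, 458 kept direction and side of the threshold, as did 846 of 920 with 1 library left out. The number of the 10 genes called was 0 in DEN-PT-WD versus nonDEN-L-WD. It became 2 with no minimum fold change (12.4% of all genes) and 1 with DESeq2. With 1 library left out it was 0 to 1, while 201 to 604 of all genes were called. Against DEN-L-CD it was 0, became 2 with no minimum fold change (10.6% of all genes), and was 0 to 1 (173 to 437 of all genes). For DEN-L-CD versus nonDEN-L-CD it was 2, 1 with no filter on low counts, 3 with DESeq2 or only the groups compared, and 1 to 2 (430 to 842 of all genes). For DEN-T-WD versus DEN-PT-WD it was 2, 1 with no filter and 1 with DESeq2 and apeglm, and 0 (without DEN-T-WD replicate 3) to 2 (1114 to 1316 of all genes). For DEN-T-WD versus nonDEN-L-WD it was 5, 8 with no minimum fold change (49.0% of all genes), 7 with DESeq2 and 3 with DESeq2 and apeglm. With 1 library left out it was 2 (without nonDEN-L-WD replicate 4) to 6, while 2228 to 2541 of all genes were called. For the interaction it was 2, and 1 to 2 (232 to 600 of all genes). For nonDEN-L-WD versus nonDEN-L-CD it was 1, and 1 to 2 (507 to 959 of all genes). For DEN-PT-WD versus nonDEN-L-CD it was 6, and 4 to 6 (1630 to 2134 of all genes). Counts under DESeq2 and in the other fits stand without a share over all genes, and are not read as a result about the 10 genes. *Ccl22* has no value in the fits on only the groups compared for nonDEN-L-WD or DEN-L-CD versus nonDEN-L-CD, where the filter removed it. Unless named here or in the report, the cause of a change was not tested.

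Whether same-numbered libraries share a mouse is not known, and weak correlations of their deviations from group means cannot exclude it. In no comparison did every pair correlate above 0.1 (lowest r from -0.23 to 0.05). With the replicate block 1 gene was called in DEN-PT-WD versus nonDEN-L-WD, 1 in DEN-T-WD versus DEN-PT-WD and 1 in the interaction, where *Ccl6* no longer passed (1.29, adjusted p = 0.078). It added *Ccl5* in the first (1.46, adjusted p = 0.046) and ended *Cxcl1* in the second (1.25, adjusted p = 0.082). In DEN-PT-WD versus nonDEN-L-CD it ended *Cxcl13* (-0.92, adjusted p = 0.16) and added *Cxcl9* (1.26, adjusted p = 0.032). It added *Cxcl10* in DEN-L-CD versus nonDEN-L-CD (1.15, adjusted p = 0.036) and *Cxcl13* in DEN-T-WD versus nonDEN-L-WD (1.65, adjusted p = 0.0080). The block turned the direction of *Cxcl13* in DEN-PT-WD versus nonDEN-L-WD (0.52) and against DEN-L-CD (0.47) and of *Ccl22* in the interaction (-0.019), none of which was called.

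Leaving out a library turned these uncalled differences, with lowest and highest log2 values as given. In DEN-PT-WD versus nonDEN-L-WD, *Cxcl13* ranged from -0.29 to 0.036. Against DEN-L-CD, *Cxcl1* ranged from -0.81 to 0.26, *Cxcl9* from -0.011 to 0.54 and *Cxcl13* from -0.43 to 0.18. Against nonDEN-L-CD, *Ccl6* ranged from -0.040 to 0.40. In nonDEN-L-WD versus nonDEN-L-CD, *Cxcl9* ranged from -0.064 to 0.71 and *Cxcl16* from -0.064 to 0.15, and in DEN-L-CD versus nonDEN-L-CD *Cxcl16* from -0.043 to 0.18. In DEN-T-WD versus DEN-PT-WD, *Ccl5* ranged from -0.083 to 0.63, *Ccl22* from -0.076 to 0.28 and *Cxcl14* from -0.17 to 0.16. In the interaction, *Ccl22* ranged from -0.14 to 0.59 and *Cxcl9* from -0.49 to 0.29.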
